A study of Mus musculus with 6 samples.

Results

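The 46 genes described here encode the machinery of mitosis. They cover the cyclin and CDK proteins that start it, the mitotic kinases, the spindle checkpoint, the chromosomal passenger complex, the kinetochore, the spindle motors, cytokinesis and chromosome structure. They were chosen by name from the gene table, which lists 34724 genes, and all 46 were found and passed the filter on low counts. The rule reads gene names and no measured value, but the names were picked with earlier results of these data known. RNA was read directly on a nanopore instrument, with no copying into DNA, from a pair of mouse cell lines, each represented by 3 libraries. The line 2H-11 is labelled as tumor endothelium and the line SVEC4-10 as normal endothelium. Both are adult-derived cells of strain C3H/HeJ from an axillary lymph node, and SV40 was used to transform both, so the same viral transformation is present on each side of the comparison. With 1 line for each label, an effect of the tumor label and any other trait of the line cannot be told apart. Whether the 3 libraries of a line stand for separate cultures is not stated, so p-values cover the spread between libraries only, and that spread may be technical.

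As background, a cell enters mitosis when cyclin B and CDK1 form an active kinase that CDC25 phosphatases switch on. Chromosomes condense and attach to spindle microtubules through kinetochores, large protein assemblies built on centromeres that contain the histone variant CENP-A. The spindle checkpoint holds back the anaphase-promoting complex until all kinetochores are attached, after which cyclin B and securin are destroyed, sister chromatids part and the cell divides. Many genes of this machinery are transcribed late in the cell cycle, and their RNA is commonly read as a sign of proliferation. SV40 large T antigen binds the retinoblastoma family proteins that restrain cell cycle genes in quiescent cells.

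Counted reads came to 4105369 to 5825968 per library in 2H-11 and to 3628400 to 16798666 in SVEC4-10, and a member had between 71 and 11045 counts in a library. Levels are CPM, the count of a gene scaled to a library total of 1000000 counts, and means are given ± SD (n = 3 libraries in each line). Of 12 endothelial markers, 11 were under 1 CPM in all 6 libraries and 6 (Cldn5, Emcn, Erg, Icam2, Tie1 and Vwf) had no count. Their summed level was 2.05 to 2.92 in 2H-11 and 1.10 to 2.62 CPM in SVEC4-10, so the endothelial label is not borne out by these markers and the lines are called by name. Fibroblast and mural markers summed to 1796 to 2298 in 2H-11 and 2087 to 2195 CPM in SVEC4-10, with Rgs5 at 0 in all libraries. Genes of that list had differences of both signs behind the sums: Pdgfrb averaged 27.5 in 2H-11 and 0 CPM in SVEC4-10, Col1a2 averaged 549 in 2H-11 and 201 CPM in SVEC4-10, and Dcn averaged 13.8 in 2H-11 and 307 CPM in SVEC4-10. Leukocyte markers summed to 4.09 to 5.66 in 2H-11 and 3.39 to 8.54 CPM in SVEC4-10. All 6 mesothelial markers were counted, and they summed to 58.5 to 72.4 in 2H-11 and 3162 to 4067 CPM in SVEC4-10. Of these, Krt19 had the opposite direction, at 22.0 in 2H-11 and 0.196 CPM in SVEC4-10, and Lrrn4 had no count in 2H-11. The part of these marker differences in the results below was not tested.

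The mitotic genes were expressed at similar summed levels in both lines, and most of them differed by little. The 46 genes together took 8356, 8122 and 6716 CPM in 2H-11, against 7542, 7741 and 7098 CPM in SVEC4-10. The 2H-11 libraries lay on both sides of the SVEC4-10 libraries, and the means were 7731 ± 887 in 2H-11 and 7460 ± 329 CPM in SVEC4-10. In bulk RNA a smaller share of cells in mitosis and less RNA per mitotic cell cannot be told apart, so these levels are averages over all cells of a library.

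Of the 46 genes, Cdc25b, Birc5, Plk1, Kif2c and Cdc20 were higher in 2H-11, Cdk1 and Top2a were lower, and 39 did not pass the test. These calls used edgeR's quasi-likelihood test over the 13187 genes that passed the filter, with a Benjamini-Hochberg adjusted p under 0.05. The 7 calls are 15.2% of the 46 genes, where 36.2% of all genes tested passed the same threshold. By direction, 5 of 46 were higher, where 20.1% of all genes tested were higher, and 2 of 46 were lower, where 16.2% were lower. All 46 are Ensembl genes, while the table also holds loci that carry no Ensembl identifier. Among the 10149 Ensembl genes tested, 31.8% passed, 13.0% higher and 18.8% lower, and among the 4813 genes of any kind within the members' range of mean level, 34.2% passed, 638 genes (13.3%) higher and 1010 lower. The median log2 fold change of 2H-11 over SVEC4-10 was 0.014 for the 46 genes and 0.003 for all genes tested (-0.102 for Ensembl genes and -0.103 for genes within the members' range of level), and 24 of the 46 values were positive and 22 negative. Reads can be shared in counting: 13 of the 46 genes, not counting Hmmr or pairs of genes that overlap in the genome, have a transcript of another gene with 90% identity or more over at least 300 bases, and 13 share exon bases with another gene, 11 of them with one on the opposite strand. Fold changes are on counts scaled by TMM, a trimmed mean of gene-wise ratios that allows for RNA composition, and not on CPM.

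The spread of the fold changes was small. The 46 log2 fold changes ran between -0.64 (Cdk1) and 0.745 (Cdc25b), and 42 of 46 genes (91.3%) differed by less than 1.5-fold, where 56.8% of all genes tested did. For 43 of the 46 genes (93.5%) the whole 95% interval of the fold lay inside a 2-fold change either way. The same held for 44.2% of all genes tested and for 68.1% of the 4813 genes whose mean level lay within the range of the members. For the 39 genes that did not pass the threshold, interval bounds reached 0.5015 (Ect2) on the low side and 1.79 (Mki67) on the high side, and 15 of these intervals lay inside 1.5-fold. A missed threshold does not show that the lines are equal, and these intervals bound the differences that remain possible. Tested against a 2-fold change, 0 of the 46 genes passed by edgeR in either direction, and 0 had an unadjusted p under 0.05, where 13.7% of all genes tested passed. In the test against no change, 11 of the 46 had an unadjusted p under 0.05. Among all genes tested 36.2% passed even the adjusted threshold, so at least that share had an unadjusted p under 0.05.

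**Figure D1:**
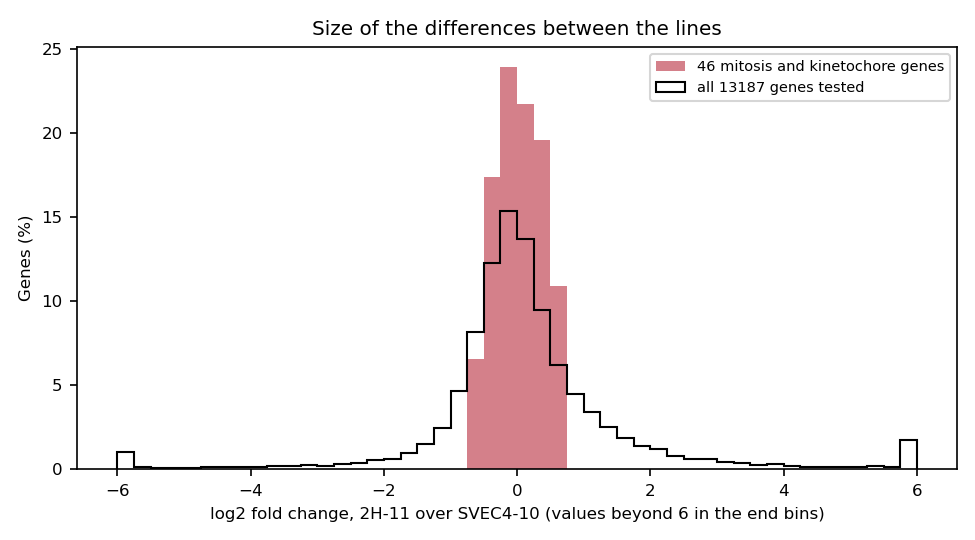
Log2 fold change of 2H-11 over SVEC4-10 (horizontal axis) against the share of genes in percent (vertical axis), for the 46 mitosis and kinetochore genes (filled) and all 13187 genes tested (line). The 46 genes lie between -0.64 and 0.745, while values of all genes tested reach beyond 6 on both sides and are gathered in the end bins.

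In CPM, the libraries of the lines did not overlap for 12 of the 46 genes (26.1%), where 46.8% of all genes tested showed no overlap. In 10 of these the 3 libraries of 2H-11 were the higher ones, where this held for 28.0% of all genes tested (Birc5, Ccnb2, Cdc20, Cdc25b, Cdca8, Cenpf, Kif2c, Ndc80, Pttg1 and Spc24), and in Cdk1 and Top2a they were the lower ones, where this held for 18.8%. Pttg1 shows how the scales differ: its libraries did not overlap in CPM, yet its fold after TMM scaling was 1.01 (95% interval 0.812 to 1.25).

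**Figure D2:**
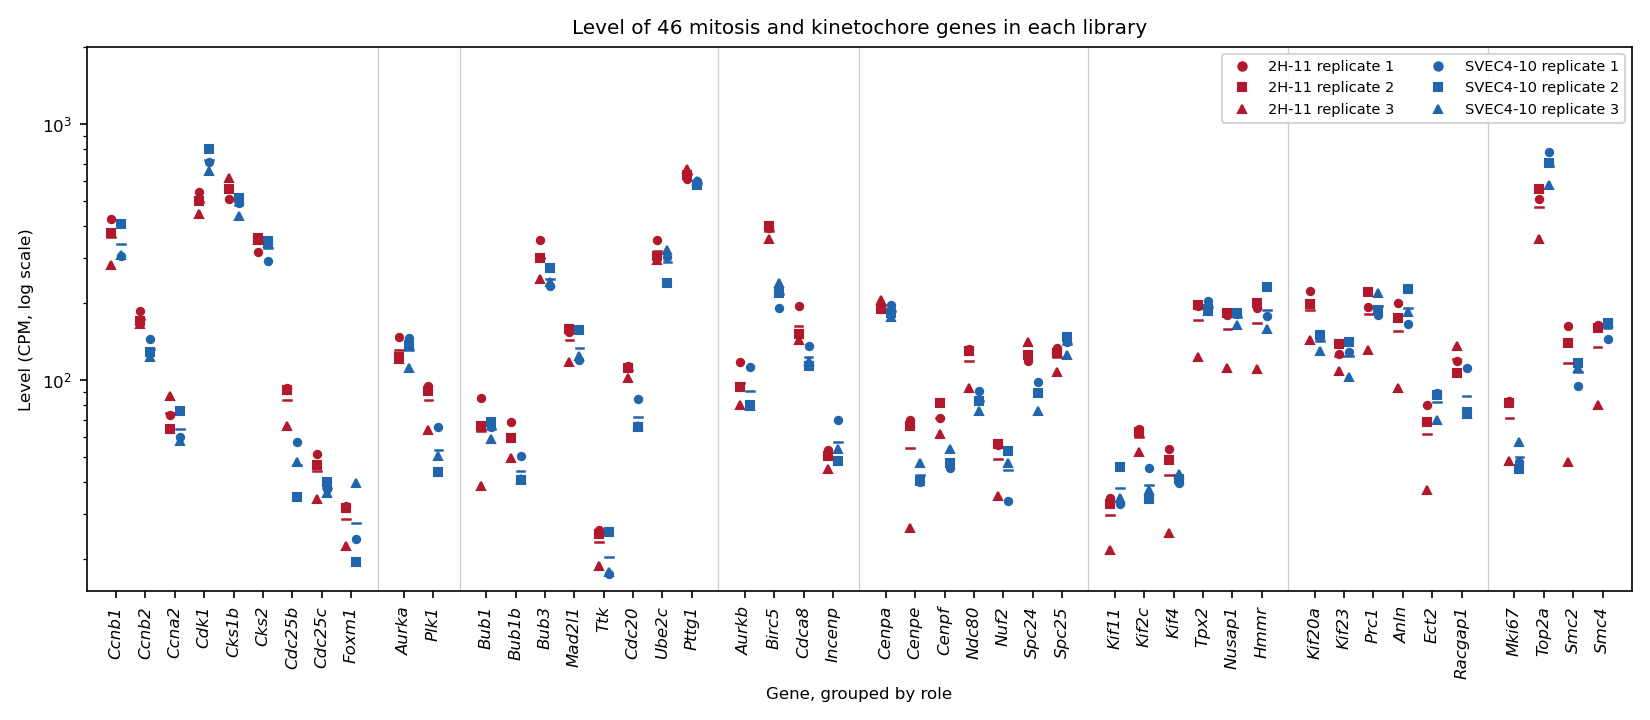
Level of each of the 46 genes in each library in CPM (vertical axis, log scale), with genes grouped by role along the horizontal axis, 2H-11 in red left of SVEC4-10 in blue, symbols for replicates 1 to 3 and a dash at the mean of each line. Cdk1 and Top2a are the pairs in which all 2H-11 points lie below the SVEC4-10 points, and 2H-11 replicate 3 (red triangle) is the lowest 2H-11 library in 39 of 46 genes.

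What the genes share in sequence near their starts was read from RefSeq promoter windows, 250 bases before to 50 bases after each start, which were found for 37 of the 46 genes (40 windows, build GRCm38.p6). Late cell cycle genes are known for a short element called CHR (cell cycle genes homology region), bound by the DREAM and MuvB complexes, and for CCAAT boxes, bound by NF-Y. The letters TTTGAA or TTCGAA, searched on both strands as CHR, were present in 78.4% of these 37 genes and in 21.7% of all 27025 genes with a window. Within 50 bases of the start they were present in 27 of 37 genes (73.0%), against 6.12% of all genes and 2 of 18 genes of a DNA replication list. CCAAT on either strand was present in 78.4% of the 37 genes, 72.2% of the replication list and 41.1% of all genes. A CHR match within 50 bases of the start together with CCAAT was present in 67.6%, against 11.1% of the replication list and 2.57% of all genes. TTTCCCGC or TTTGGCGC, letters of E2F elements, were in 0 of 37 genes, against 44.4% of the replication list and 1.80% of all genes. Other spellings of E2F elements were not searched, and the Cdk1 window printed below holds one of them, TTTCGCGC. The 0 therefore does not show that these windows lack E2F letters. TATAAA was in 2.70% of the 37 genes and 15.7% of all. TTCGAA reads the same on both strands and was counted once, and no motif lies inside another. A match in letters is a description and not evidence of binding, and no match says only that the letters are not in the window.

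Windows are printed for the gene with the smallest p in each direction, Birc5 and Cdk1. Shorter stretches from 50 bases before to 50 bases after the start are printed for Cdc25b, Plk1, Cdc20 and Top2a, the other called genes whose stretch holds CHR letters. The remaining called gene, Kif2c, has CHR letters at -103. Its window (chr4:117178723-117179022 on the minus strand) does not reach the start of its GENCODE gene at 117182639, so it may not be the promoter of the counted transcripts. Capitals mark CHR and CCAAT letters read on either strand, positions count the start as 1 with no 0, and each run is 5′ to 3′ on the strand of its gene. Birc5 (chr11:117848987-117849286 on the plus strand) holds neither motif, and Cdk1 (chr10:69352863-69353162 on the minus strand) holds CHR letters at -71 and -15 and CCAAT at -208, -80 and -48. Cdc25b (chr2:131186898-131186997 on the plus strand) has CHR at 8, and Plk1 (chr7:122159385-122159484 on the plus strand) has it at 31. Cdc20 (chr4:118437294-118437393 on the minus strand) has it at -18. Top2a (chr11:99024140-99024239 on the minus strand) has it at -23, and its whole window holds 4 CHR and 6 CCAAT matches.
Birc5: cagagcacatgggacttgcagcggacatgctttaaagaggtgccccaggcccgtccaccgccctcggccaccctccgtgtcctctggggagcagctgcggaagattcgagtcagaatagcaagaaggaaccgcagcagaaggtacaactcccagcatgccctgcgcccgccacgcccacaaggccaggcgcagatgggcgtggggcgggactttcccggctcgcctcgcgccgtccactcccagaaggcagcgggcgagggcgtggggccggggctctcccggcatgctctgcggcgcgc
Cdk1: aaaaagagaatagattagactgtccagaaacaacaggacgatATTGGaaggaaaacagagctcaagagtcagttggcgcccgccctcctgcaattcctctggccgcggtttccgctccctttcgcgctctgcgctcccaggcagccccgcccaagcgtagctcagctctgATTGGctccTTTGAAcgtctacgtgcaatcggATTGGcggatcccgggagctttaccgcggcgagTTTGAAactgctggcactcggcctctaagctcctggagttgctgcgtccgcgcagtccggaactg
Cdc25b: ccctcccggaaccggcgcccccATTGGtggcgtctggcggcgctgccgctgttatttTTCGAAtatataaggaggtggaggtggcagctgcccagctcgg
Plk1: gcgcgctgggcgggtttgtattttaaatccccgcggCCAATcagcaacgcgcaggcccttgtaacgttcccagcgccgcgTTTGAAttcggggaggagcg
Cdc20: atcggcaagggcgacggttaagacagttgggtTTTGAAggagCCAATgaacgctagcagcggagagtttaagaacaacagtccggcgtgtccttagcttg
Top2a: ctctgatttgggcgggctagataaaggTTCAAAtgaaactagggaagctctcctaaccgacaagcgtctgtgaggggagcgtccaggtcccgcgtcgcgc

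Fold changes of both signs were found with and without CHR letters near the start. The 27 genes with CHR letters within 50 bases of the start had a median log2 fold change of -0.001 (range -0.64 to 0.745), and the 10 without had a median of 0.016 (range -0.26 to 0.72). Both of the printed full windows belong to genes that passed the threshold, in opposite directions, and one of them holds the letters. Bases 21 to 40 after the RefSeq start lay in a GENCODE transcript on the same strand for 31 of 37 genes, so for the other 6 the start used here may not be that of the counted transcripts.

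**Figure D3:**
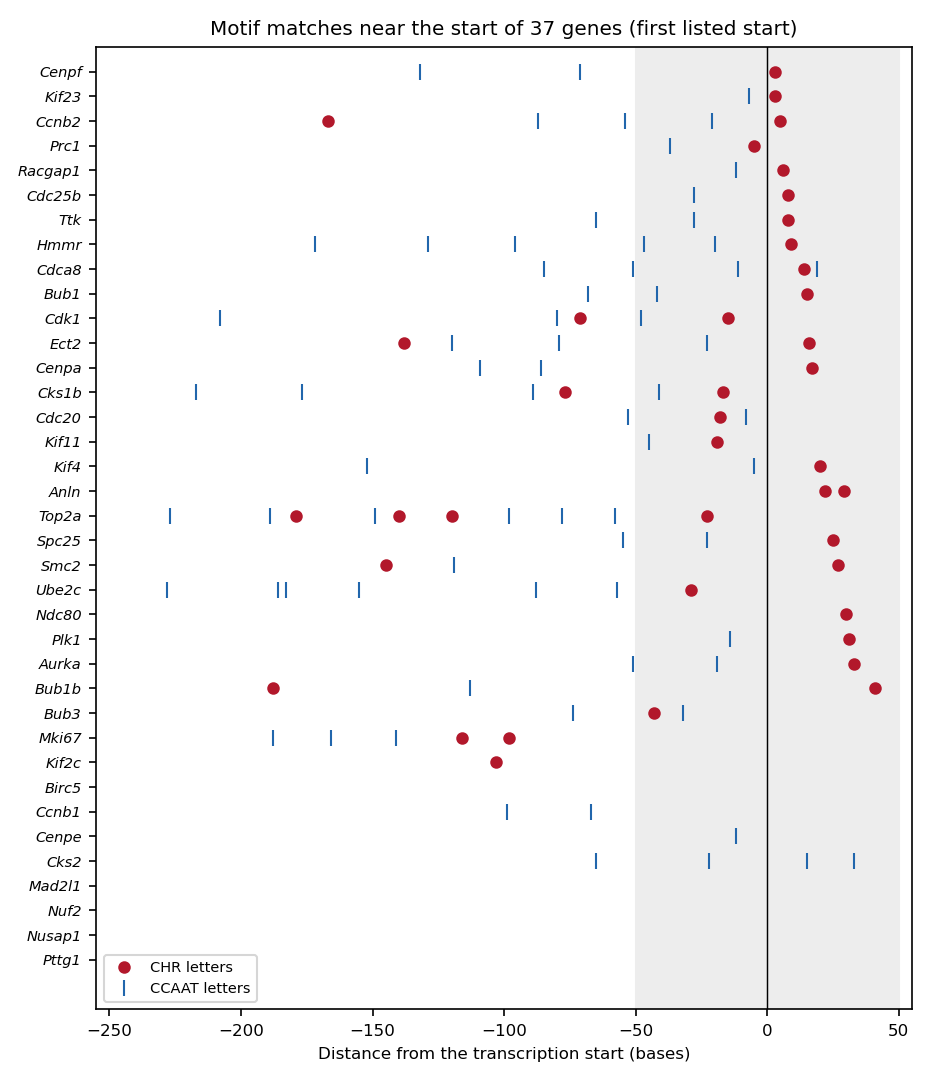
Distance of motif matches from the RefSeq start in bases (horizontal axis) for 37 genes (rows, first listed start, sorted by the distance of the nearest CHR match), with red dots for CHR letters, blue ticks for CCAAT letters and grey shading within 50 bases of the start. The red dots gather in the shaded band in 27 genes, and Birc5, near the bottom, has neither mark.

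Among the 9 genes of the cyclin and CDK engine, Cdc25b was higher, Cdk1 was lower and 7 did not pass the threshold. Cdk1, the kinase that drives entry into mitosis (ENSMUSG00000019942, chr10:69335146-69352938, minus strand in GRCm38), stood at 544, 501 and 444 CPM in 2H-11, against 714, 800.4 and 658 CPM in SVEC4-10. All 3 libraries of 2H-11 were below all 3 of SVEC4-10, and the means were 496 ± 49.8 in 2H-11 against 724 ± 72.0 CPM in SVEC4-10 (log2 fold change of -0.64 with SE 0.16, adjusted p = 0.00356). Cdc25b, a phosphatase that removes inhibitory phosphates from CDK1 (ENSMUSG00000027330, chr2:131186949-131198497, plus strand), had 93.4, 91.6 and 66.3 CPM in 2H-11, against 57.5, 35 and 47.9 CPM in SVEC4-10. No library overlapped between the lines, 2H-11 being higher, with means of 83.8 ± 15.2 in 2H-11 against 46.8 ± 11.3 CPM in SVEC4-10 (log2 fold change of 0.75 with SE 0.20, adjusted p = 0.00751). Without SVEC4-10 replicate 2, the lowest of its line, Cdc25b had a log2 fold change of 0.56 and missed the threshold (adjusted p = 0.0609). Cdk1 passed in all 16 alternative analyses that gave each gene a value.

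The cyclins that pair with CDK1 did not pass the threshold. Ccnb2, which encodes cyclin B2, had 186, 171 and 166 CPM in 2H-11, against 145, 128 and 124 CPM in SVEC4-10. Every 2H-11 library was the higher, at 174 ± 10.3 in 2H-11 against 132 ± 11.2 CPM in SVEC4-10, but the difference missed the threshold (log2 fold change of 0.31 with SE 0.16, adjusted p = 0.155, 95% interval of the fold 0.976 to 1.57). Ccnb1, which encodes cyclin B1, had 426, 375 and 283 CPM in 2H-11, against 306, 409 and 309 CPM in SVEC4-10. Its libraries overlapped, with means of 361 ± 72.5 in 2H-11 against 341 ± 58.4 CPM in SVEC4-10, and its fold lay in an interval of 0.750 to 1.29 (adjusted p = 0.933). Reads of Ccnb1 are uncertain, because its transcript is 99.22% identical over 1287 bases to the processed pseudogene Ccnb1-ps. Ccna2, which encodes cyclin A2, averaged 74.8 ± 11.3 in 2H-11 against 64.6 ± 9.72 CPM in SVEC4-10 (interval 0.810 to 1.46).

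The ratio of Cdk1 counts to cyclin counts within a library, chosen after the values were seen, was lower in 2H-11 for each of the 3 cyclins. Cdk1 had 1.28, 1.34 and 1.57 counts per Ccnb1 count in 2H-11, against 2.33, 1.96 and 2.13 in SVEC4-10. Per Ccnb2 count the means were 2.85 ± 0.151 in 2H-11 and 5.49 ± 0.670 in SVEC4-10. Per Ccna2 count they were 6.77 ± 1.44 in 2H-11 and 11.3 ± 0.663 in SVEC4-10. The libraries of the lines overlapped in none of the 3 ratios, which need no scaling between libraries and carry no test here. The ratios use the counts behind the Cdk1 call and are no separate support for it.

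The other engine genes did not pass the threshold. Cks1b and Cks2, small subunits that bind CDKs, averaged 562 ± 52.2 in 2H-11 against 482 ± 40.8 CPM in SVEC4-10 for Cks1b and 342 ± 22.1 in 2H-11 against 328 ± 31.4 CPM in SVEC4-10 for Cks2. The fold interval was 0.865 to 1.38 for Cks1b and 0.767 to 1.24 for Cks2. Cks1b counts may include reads of Cks1brt, whose transcript is 94.81% identical over 693 bases. Cks1brt itself had 12 counts summed over all 6 libraries. Cdc25c, another CDC25 phosphatase, averaged 44.3 ± 8.83 in 2H-11 against 37.9 ± 1.90 CPM in SVEC4-10 (interval 0.810 to 1.47). Foxm1, a transcription factor of late cell cycle genes, averaged 28.8 ± 5.52 in 2H-11 against 27.8 ± 10.5 CPM in SVEC4-10 (interval 0.656 to 1.37). Within SVEC4-10, Foxm1 varied more than any other member, with a coefficient of variation of 37.9%.

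Of the pair of mitotic kinases, Plk1 was higher in 2H-11. Plk1, a polo-like kinase that acts at centrosomes, kinetochores and in cytokinesis (ENSMUSG00000030867, chr7:122159439-122169873, plus strand), had 95.1, 91.1 and 64.0 CPM in 2H-11, against 65.7, 43.8 and 50.7 CPM in SVEC4-10. 2H-11 replicate 3 lay just below SVEC4-10 replicate 1, so the lines overlapped, with means of 83.4 ± 16.9 in 2H-11 against 53.4 ± 11.2 CPM in SVEC4-10 (log2 fold change of 0.55 with SE 0.20, adjusted p = 0.0386). The call was lost when any of 4 libraries was left out, namely 2H-11 replicate 1 (adjusted p = 0.144) or 2 (0.167) and SVEC4-10 replicate 2 (0.175) or 3 (0.144), and the log2 fold change over all leave-outs was 0.41 to 0.69. The processed pseudogene Plk-ps1 is 93.49% identical to Plk1 over 1813 bases. Aurka, which encodes Aurora A, a kinase of spindle poles, had 147, 124 and 122 CPM in 2H-11, against 146, 137 and 112 CPM in SVEC4-10. Its libraries overlapped, with means of 131 ± 14.2 in 2H-11 against 132 ± 17.7 CPM in SVEC4-10 and a fold interval of 0.724 to 1.202 (adjusted p = 0.694).

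Among the 8 checkpoint and anaphase genes, Cdc20 was higher in 2H-11 and 7 did not pass. Cdc20, the activator of the anaphase-promoting complex that the checkpoint holds back (ENSMUSG00000006398, chr4:118432901-118437352, minus strand), had 114, 112 and 103 CPM in 2H-11, against 84.1, 65.9 and 66.4 CPM in SVEC4-10. Every library of 2H-11 was above every library of SVEC4-10, with means of 109 ± 6.02 in 2H-11 against 72.1 ± 10.4 CPM in SVEC4-10 (log2 fold change of 0.51 with SE 0.17, adjusted p = 0.0281). The call was lost without 2H-11 replicate 1 (adjusted p = 0.0783) or 2 (0.122) and without SVEC4-10 replicate 2 (0.103) or 3 (0.143). Cdc20 shares exon bases with Elovl1 on the opposite strand, and the processed pseudogene Gm7856 is 93.65% identical to it over 1512 bases.

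The genes of the checkpoint itself did not pass the threshold. Bub1b, which encodes the checkpoint protein BubR1, had 68.8, 59.4 and 49.8 CPM in 2H-11, against 50.7, 40.8 and 41.0 CPM in SVEC4-10. SVEC4-10 replicate 1 lay just above 2H-11 replicate 3, and the means were 59.4 ± 9.53 in 2H-11 against 44.2 ± 5.67 CPM in SVEC4-10 (log2 fold change of 0.34 with SE 0.19, adjusted p = 0.192). Bub3, a partner of Bub1 and BubR1, had 353, 301 and 249 CPM in 2H-11, against 234, 274 and 241 CPM in SVEC4-10, and its libraries overlapped around means of 301 ± 52.2 in 2H-11 against 249.5 ± 21.3 CPM in SVEC4-10 (interval 0.875 to 1.44). Mad2l1, which encodes the checkpoint effector MAD2, had 155, 158 and 118 CPM in 2H-11, against 120.1, 157 and 124 CPM in SVEC4-10. The libraries of Mad2l1 were interleaved, at 144 ± 22.5 in 2H-11 against 134 ± 20.3 CPM in SVEC4-10, with a fold interval of 0.761 to 1.31 and the largest p of the group (adjusted p = 0.994).

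The remaining members of this group did not pass either. Bub1, a checkpoint kinase, averaged 63.6 ± 23.6 in 2H-11 against 64.4 ± 5.09 CPM in SVEC4-10 (interval 0.654 to 1.29). Ttk, which encodes the checkpoint kinase MPS1, averaged 23.3 ± 3.89 in 2H-11 against 20.4 ± 4.57 CPM in SVEC4-10 (interval 0.759 to 1.53). Among the genes of anaphase, Ube2c, a ubiquitin-conjugating enzyme of the anaphase-promoting complex, averaged 319 ± 31.3 in 2H-11 against 288 ± 42.9 CPM in SVEC4-10 (interval 0.820 to 1.31). Pttg1, which encodes securin, averaged 637 ± 28.9 in 2H-11 against 591 ± 10.7 CPM in SVEC4-10, and in SVEC4-10 its coefficient of variation of 1.80% was the smallest of the members. These 4 genes all had folds within 10% of 1 by edgeR.

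In the chromosomal passenger complex Birc5 was higher in 2H-11, and the other 3 subunits did not pass the threshold. It joins the kinase Aurora B to survivin, borealin and INCENP, and corrects faulty attachments at centromeres before moving to the spindle midzone. Birc5, which encodes survivin (ENSMUSG00000017716, chr11:117849251-117855743, plus strand), had 394, 400.2 and 356 CPM in 2H-11, against 191, 219 and 239.8 CPM in SVEC4-10. The lowest 2H-11 library was 356 CPM and the highest SVEC4-10 library 239.8 CPM, and the means were 383 ± 23.8 in 2H-11 against 217 ± 24.3 CPM in SVEC4-10 (log2 fold change of 0.72 with SE 0.16, adjusted p = 0.00188). Birc5 was 1.65-fold higher (95% interval 1.30 to 2.09), had the smallest p of the 46 genes and passed in all 16 alternatives. Neither a similar transcript nor an overlapping gene was found for Birc5 or for Cdk1.

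Fold changes of the other subunits had both signs. Cdca8, which encodes borealin, had 195, 152 and 144 CPM in 2H-11, against 136, 114 and 119 CPM in SVEC4-10. There was no overlap, but the difference missed the threshold at 164 ± 27.2 in 2H-11 against 123 ± 11.3 CPM in SVEC4-10 (log2 fold change of 0.32 with SE 0.17, adjusted p = 0.157). Aurkb, which encodes Aurora B, had 118, 94.0 and 79.8 CPM in 2H-11, against 113, 79.9 and 79.1 CPM in SVEC4-10, and its libraries were interleaved around 97.4 ± 19.5 in 2H-11 against 90.7 ± 19.4 CPM in SVEC4-10 (interval 0.763 to 1.34, adjusted p = 0.963). Incenp, the scaffold of the complex, had 53.6, 50.4 and 45.0 CPM in 2H-11, against 70.1, 48.5 and 54.0 CPM in SVEC4-10. Its libraries overlapped, with 49.7 ± 4.36 in 2H-11 against 57.5 ± 11.2 CPM in SVEC4-10 and an interval of 0.615 to 1.07 (adjusted p = 0.24).

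Ratios of Birc5 to the other subunits within libraries were again chosen after the values were seen. They use the counts behind the Birc5 call and are no separate support for it. Birc5 had 3.33, 4.26 and 4.46 counts per Aurkb count in 2H-11, against 1.69, 2.74 and 3.03 in SVEC4-10. Per Cdca8 count the means were 2.37 ± 0.315 in 2H-11 and 1.78 ± 0.326 in SVEC4-10. Per Incenp count they were 7.73 ± 0.337 in 2H-11 and 3.89 ± 1.01 in SVEC4-10. The lines did not overlap in the ratio to Aurkb or to Incenp, and in the ratio to Cdca8 the lowest 2H-11 library and the highest SVEC4-10 library were both at 2.02.

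None of the 7 kinetochore and centromere genes passed the threshold by edgeR, where 36.2% of all genes tested passed. An unadjusted p under 0.05 was found for 3 of the 7, and for at least 36.2% of all genes tested. DESeq2 called 0 of them and limma-voom 1, Spc24. In 3 of the 7 every 2H-11 library lay above every SVEC4-10 library, where 28.0% of all genes tested did so. With Ensembl genes only, Spc24 (adjusted p = 0.0169), Cenpf (0.0260) and Ndc80 (0.0272) were higher in 2H-11 by edgeR. That fit had 1657 genes higher and 1631 lower in all. Those in the NDC80 complex, which binds microtubules at the kinetochore, had fold changes of both signs. Spc24, one of its subunits, had 119, 126 and 142 CPM in 2H-11, against 98.6, 89.6 and 76.1 CPM in SVEC4-10. The lines did not overlap, with means of 129 ± 11.6 in 2H-11 against 88.1 ± 11.3 CPM in SVEC4-10, and the gene narrowly missed the threshold (log2 fold change of 0.46 with SE 0.18, adjusted p = 0.0507). Ndc80, the subunit that contacts the microtubule, had 133, 129.6 and 93.2 CPM in 2H-11, against 91.2, 83.0 and 75.5 CPM in SVEC4-10. All 2H-11 libraries were above those of SVEC4-10, at 118 ± 21.9 in 2H-11 against 83.2 ± 7.81 CPM in SVEC4-10 (log2 fold change of 0.41 with SE 0.18, adjusted p = 0.0868), and without 2H-11 replicate 3 the gene passed (log2 fold change 0.54, adjusted p = 0.0275).

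The other NDC80 subunits did not pass the threshold. Spc25, the dimer partner of Spc24, averaged 123 ± 13.7 in 2H-11 against 138 ± 11.4 CPM in SVEC4-10 (interval 0.649 to 1.07), and Nuf2, the partner of Ndc80, averaged 49.1 ± 12.0 in 2H-11 against 44.8 ± 10.1 CPM in SVEC4-10 (interval 0.720 to 1.42). The ratio of Spc24 to Spc25 counts, chosen after the values were seen, was 0.891, 0.987 and 1.32 in 2H-11, against 0.696, 0.609 and 0.608 in SVEC4-10, with no overlap. The ratio of Ndc80 to Nuf2 counts overlapped, at 2.44 ± 0.183 in 2H-11 and 1.95 ± 0.656 in SVEC4-10.

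At the outer kinetochore, Cenpf, a large microtubule-binding protein, had 71.1, 81.6 and 61.6 CPM in 2H-11, against 45.6, 47.7 and 53.8 CPM in SVEC4-10. The lines did not overlap, with 71.4 ± 10.00 in 2H-11 against 49.0 ± 4.25 CPM in SVEC4-10, and the threshold was missed (log2 fold change of 0.44 with SE 0.19, adjusted p = 0.0809). Cenpe, a kinesin that moves chromosomes to the spindle equator, averaged 54.4 ± 24.3 in 2H-11 against 42.7 ± 4.06 CPM in SVEC4-10 (interval 0.793 to 1.74). 2H-11 replicate 3 had 26.4 CPM of Cenpe against 70.1 and 66.5 CPM in the other 2H-11 libraries, and without it Cenpe was higher (log2 fold change 0.55, adjusted p = 0.0375). Cenpa, the histone variant that marks centromeres, had 194, 189.8 and 206 CPM in 2H-11, against 196, 184 and 177 CPM in SVEC4-10. Its libraries were interleaved around 197 ± 8.38 in 2H-11 against 186 ± 9.71 CPM in SVEC4-10, with an interval of 0.788 to 1.25 and the largest p of the group (adjusted p = 0.973).

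Among the 6 spindle motors and microtubule proteins, Kif2c was higher in 2H-11 and the other 5 had negative fold changes that did not pass. Without 2H-11 replicate 3 the log2 fold change was 0.185 for Kif4 and -0.282 for Kif11. For Tpx2, Nusap1 and Hmmr it was then -0.108, -0.0764 and -0.0715. Kif2c, which encodes MCAK, a kinesin that takes microtubule ends apart (ENSMUSG00000028678, chr4:117159639-117182639, minus strand), had 64.7, 62.8 and 52.4 CPM in 2H-11, against 45.6, 34.5 and 37.2 CPM in SVEC4-10. All 2H-11 libraries exceeded all SVEC4-10 libraries, with means of 60.0 ± 6.67 in 2H-11 against 39.1 ± 5.81 CPM in SVEC4-10 (log2 fold change of 0.53 with SE 0.19, adjusted p = 0.0371). The call was kept without 2H-11 replicate 3 (adjusted p = 0.0261) and lost without any 1 of the other 5 libraries, the adjusted p then being 0.0598 to 0.157. A long noncoding RNA gene, Gm4961, has 91.68% identity to Kif2c over 1443 bases.

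The other motors showed overlapping libraries. Kif11, the motor that pushes spindle poles apart, had 34.6, 32.9 and 21.8 CPM in 2H-11, against 33.0, 46.03 and 34.7 CPM in SVEC4-10. SVEC4-10 replicate 2 stood above the other libraries, and the means were 29.8 ± 6.95 in 2H-11 against 37.9 ± 7.11 CPM in SVEC4-10 (log2 fold change of -0.45 with SE 0.23, adjusted p = 0.141). Tpx2, an activator of Aurora A and a spindle assembly factor, had 194, 196 and 123 CPM in 2H-11, against 205, 190.2 and 187 CPM in SVEC4-10. Replicate 3 of 2H-11 was the low library there, and the means were 171 ± 41.4 in 2H-11 against 194 ± 9.39 CPM in SVEC4-10 (interval 0.632 to 1.08). Kif4, a chromosome-bound kinesin, had 53.8, 48.7 and 25.4 CPM in 2H-11, against 39.7, 41.3 and 43.2 CPM in SVEC4-10, again with 2H-11 replicate 3 lowest (42.6 ± 15.1 in 2H-11 against 41.4 ± 1.74 CPM in SVEC4-10, interval 0.675 to 1.35). It shares exon bases with Pdzd11 on the opposite strand.

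Nusap1, a microtubule-stabilising protein, averaged 158 ± 40.5 in 2H-11 against 176 ± 10.1 CPM in SVEC4-10 (interval 0.635 to 1.10). Hmmr, a spindle protein and hyaluronan receptor, averaged 167 ± 49.3 in 2H-11 against 189 ± 37.3 CPM in SVEC4-10 (interval 0.600 to 1.13). Both spread more in 2H-11, where replicate 3 was again the lowest library. Hmmr carries a stretch of 390 bases found at 90% identity or more in many other genes, and Nusap1 shares exon bases with Oip5 on the opposite strand.

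None of the 6 midzone and cytokinesis genes passed the threshold by edgeR, DESeq2 or limma-voom, where 36.2% of all genes tested passed by edgeR. An unadjusted p under 0.05 by edgeR was found for 1 of the 6, and for at least 36.2% of all genes tested. The libraries of the lines overlapped in all 6, where 46.8% of all genes tested showed no overlap. Ect2, the exchange factor that activates RhoA at the cleavage furrow, had 79.8, 68.7 and 37.3 CPM in 2H-11, against 89.1, 87.4 and 69.9 CPM in SVEC4-10. 2H-11 replicate 3 was far below the rest, and the means were 61.9 ± 22.1 in 2H-11 against 82.1 ± 10.6 CPM in SVEC4-10 (log2 fold change of -0.51 with SE 0.23, adjusted p = 0.0987). Racgap1, the centralspindlin subunit that Ect2 binds, had 119, 106 and 136 CPM in 2H-11, against 111, 75.5 and 73.9 CPM in SVEC4-10, with means of 121 ± 14.96 in 2H-11 against 86.9 ± 21.1 CPM in SVEC4-10 (log2 fold change of 0.40 with SE 0.19, adjusted p = 0.118). Anln, an actin-binding protein of the contractile ring, had 199.8, 175 and 93.0 CPM in 2H-11, against 166, 227 and 184 CPM in SVEC4-10, with means of 156 ± 55.8 in 2H-11 against 192 ± 31.2 CPM in SVEC4-10 (log2 fold change of -0.41 with SE 0.23, adjusted p = 0.175). Without 2H-11 replicate 1, Ect2 (adjusted p = 0.0260) and Anln (0.0457) were lower in 2H-11, and without 2H-11 replicate 3 their adjusted p was 0.346 and 0.563.

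The other genes of cytokinesis showed intervals on both sides of no change. Kif23, the motor subunit of centralspindlin, had 126, 139 and 109 CPM in 2H-11, against 129, 141 and 103 CPM in SVEC4-10, interleaved around 125 ± 15.4 in 2H-11 against 124 ± 19.4 CPM in SVEC4-10 (interval 0.720 to 1.23). Kif20a, a midzone kinesin, averaged 188 ± 40.8 in 2H-11 against 143 ± 10.8 CPM in SVEC4-10 (interval 0.947 to 1.61), and it shares exon bases with Cdc23 on the opposite strand. Prc1, which bundles midzone microtubules, averaged 182 ± 45.2 in 2H-11 against 196 ± 20.5 CPM in SVEC4-10 (interval 0.655 to 1.14). In Prc1 and Kif20a alike, 2H-11 replicate 3 was the lowest library of its line.

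Of the 4 genes of chromosome structure, Top2a was lower in 2H-11. Top2a, a topoisomerase that untangles sister DNA (ENSMUSG00000020914, chr11:98992943-99024189, minus strand), had 510.1, 559 and 355 CPM in 2H-11, against 777, 708 and 579.7 CPM in SVEC4-10. The highest 2H-11 library was 559 CPM and the lowest SVEC4-10 library 579.7 CPM, and the means were 475 ± 107 in 2H-11 against 688 ± 100.1 CPM in SVEC4-10 (log2 fold change of -0.63 with SE 0.18, adjusted p = 0.00877). Top2a was 1.55-fold lower and passed in all 16 alternatives, with adjusted p up to 0.0397. Mki67, which encodes the proliferation antigen Ki-67, had 83.2, 81.6 and 48.2 CPM in 2H-11, against 48.2, 45.2 and 57.3 CPM in SVEC4-10. Replicate 3 of 2H-11 was level with the lower SVEC4-10 libraries, and the means were 71.0 ± 19.7 in 2H-11 against 50.2 ± 6.29 CPM in SVEC4-10 (log2 fold change of 0.39 with SE 0.21, adjusted p = 0.171), but without that replicate Mki67 was higher in 2H-11 (log2 fold change 0.59, adjusted p = 0.0254).

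The condensin cores Smc2 and Smc4, which compact chromosomes, did not pass. Smc2 had 163, 139.8 and 47.9 CPM in 2H-11, against 95.4, 117 and 111 CPM in SVEC4-10. Replicates 1 and 2 of 2H-11 were above all SVEC4-10 libraries and replicate 3 below them, so the mean of 117 ± 60.7 in 2H-11 against 108 ± 11.2 CPM in SVEC4-10 carried a wide interval of 0.653 to 1.53 (adjusted p = 0.998). Smc4 had 164, 160.3 and 79.8 CPM in 2H-11, against 145, 167 and 168 CPM in SVEC4-10, with replicate 3 of 2H-11 again the lowest library (135 ± 47.6 in 2H-11 against 159.9 ± 12.8 CPM in SVEC4-10, log2 fold change of -0.36 with SE 0.22, adjusted p = 0.228). The coefficient of variation of Smc2 in 2H-11, 52.0%, was the largest of the members in that line.

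**Figure D4:**
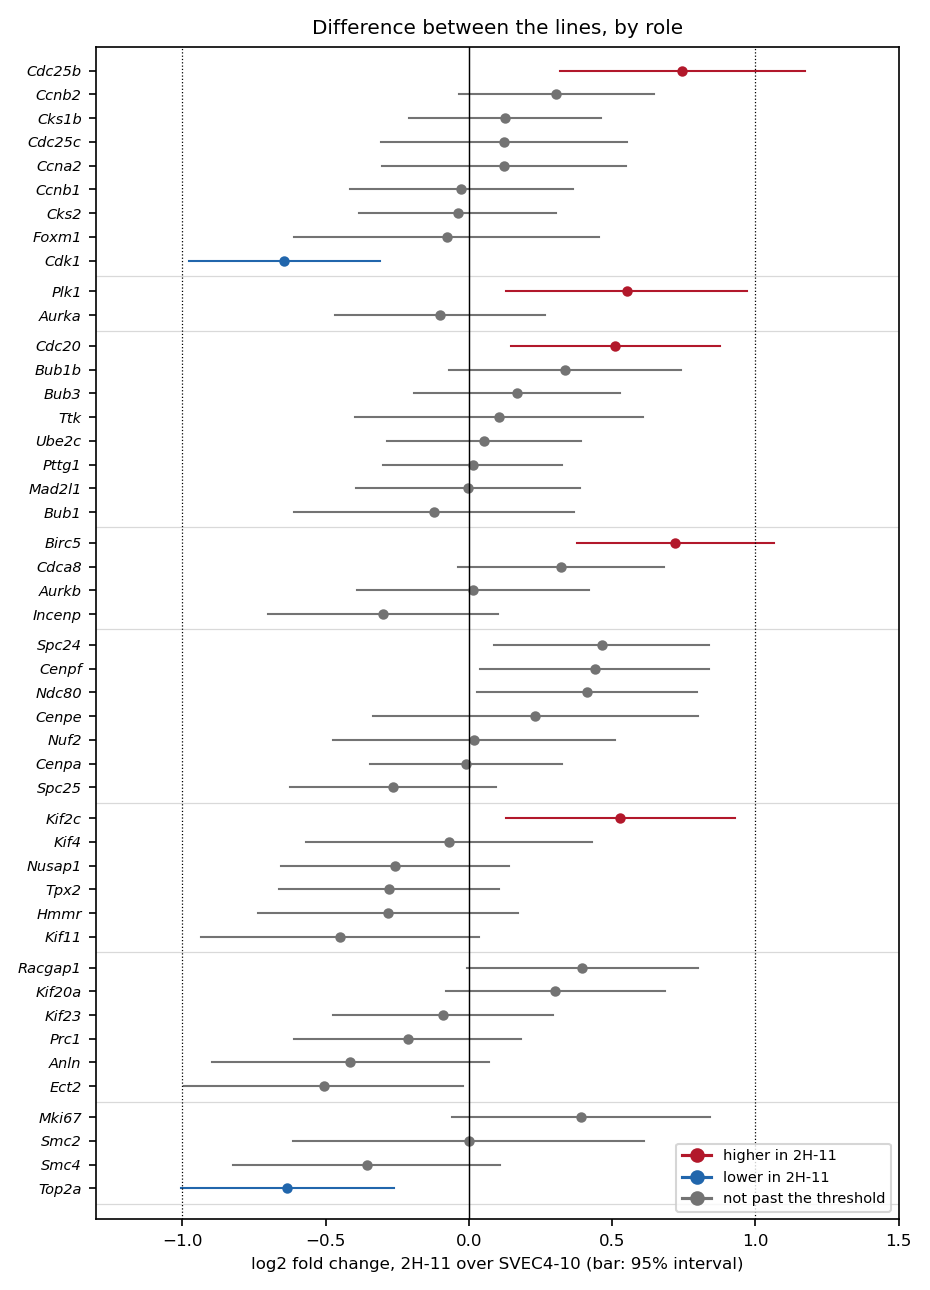
Log2 fold change of 2H-11 over SVEC4-10 with its 95% interval (horizontal axis) for each of the 46 genes (rows, grouped by role and sorted within each group), with red for genes higher in 2H-11, blue for genes lower in 2H-11 and grey for genes not past the threshold, and dotted lines at a 2-fold change. The 5 red and 2 blue genes are spread over 6 of the 8 groups, and 43 of 46 intervals end inside the dotted lines.

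Replicate 3 of 2H-11 stood apart in these genes. It was the lowest 2H-11 library for 39 of 46 members (84.8%), where it was the lowest for 43.3% of 12120 genes with 100 or more counts. Among the 22 members with a main transcript over 3 kb it was the lowest for all 22, where the share was 57.8% of 4664 such genes. The median log2 ratio of replicate 3 to the mean of replicates 1 and 2 was -0.42 in 2H-11 over all members, -0.64 over those longer than 3 kb and -0.215 over the 24 others. In SVEC4-10 the median of the same ratio was -0.14. Across the 46 genes the Pearson correlation of this ratio with log2 transcript length was -0.63 in 2H-11 and 0.145 in SVEC4-10, and genes of 1 library share its depth and RNA, so this is a description. Over all Ensembl genes, the trend with length in 2H-11 replicate 3 was 0.18 at 1 kb and -0.14 at 8 kb on the log2 scale. Such trends were not limited to that library. At the same lengths they were 0.022 and -0.117 in SVEC4-10 replicate 2, and -0.030 and 0.184 in SVEC4-10 replicate 3. SVEC4-10 replicate 2 was the lowest of its line for 55.1% of the 4664 longer genes, but for 5 of the 22 longer members.

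**Figure D5:**
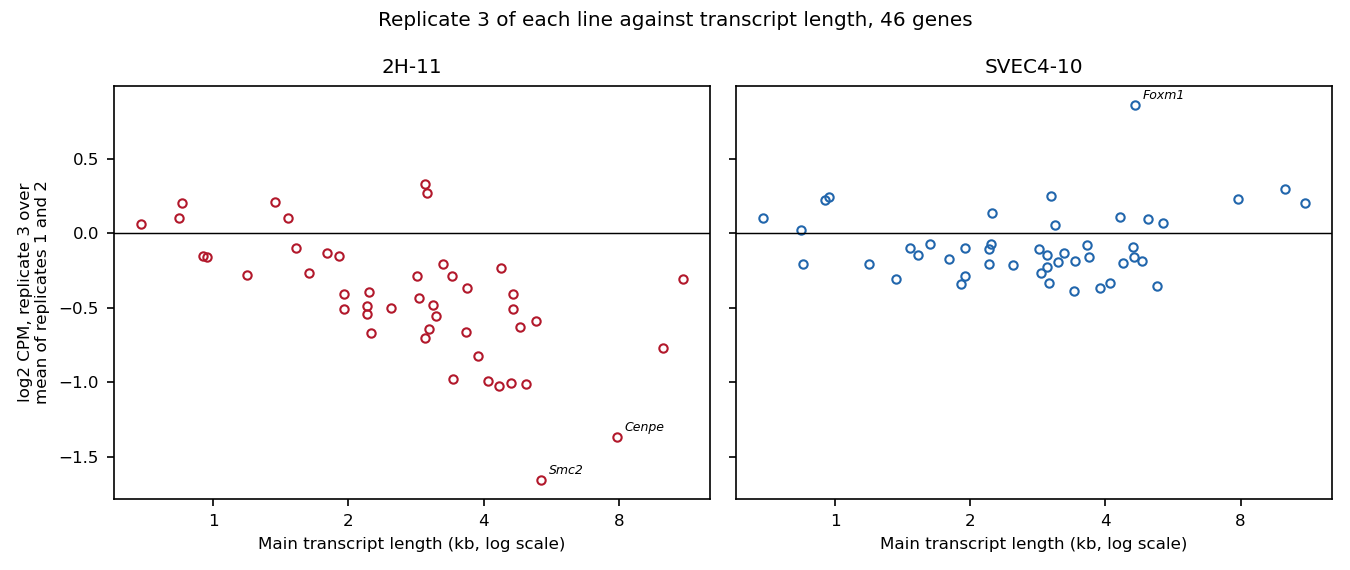
Log2 ratio of replicate 3 to the mean of replicates 1 and 2 (vertical axis, from CPM) against main transcript length in kb (horizontal axis, log scale) for the 46 genes, with 2H-11 at left and SVEC4-10 at right. In 2H-11 most points lie below 0 and the longer genes lie lower, down to -1.66 for Smc2 and -1.37 for Cenpe, while in SVEC4-10 the points show no such fall.

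The calls moved with this library and with others. Without 2H-11 replicate 3, 8 members were higher in 2H-11 and 2 lower, the 3 added genes being Cenpe, Ndc80 and Mki67. In all, 2281 genes were higher and 2043 lower in that fit, against 2645 and 2133 in the main fit. Without SVEC4-10 replicate 2, Birc5 was the 1 member still higher, and without 2H-11 replicate 1, 2H-11 replicate 2 or SVEC4-10 replicate 3 the higher members were 2, Birc5 and Cdc25b. Without 2H-11 replicate 1 there were 4 lower members, with Anln and Ect2 joining Cdk1 and Top2a. Over all genes, 2577 were higher and 2141 lower without SVEC4-10 replicate 2, and 2929 and 2220 without 2H-11 replicate 1. Without 2H-11 replicate 2 the counts were 2380 and 1754, and without SVEC4-10 replicate 3 they were 2335 and 1930. With the fit restricted to Ensembl genes, 9 members were higher and 2 lower, the added genes being Cenpf, Ndc80, Spc24 and Racgap1. That fit had 1657 Ensembl genes higher and 1631 lower in all, where the main fit had 1319 of them higher and 1907 lower. With the length trend also removed, 1724 Ensembl genes were higher and 1677 lower. Removal of the trend with transcript length in Ensembl genes gave 11 higher and 2 lower, with Ccnb2, Cdca8, Cenpf, Ndc80, Spc24 and Mki67 added to the main calls and Racgap1 not passing. Birc5, Cdk1 and Top2a passed in all 16 alternatives, 29 members passed in no analysis, and 28 of the 46 kept 1 sign throughout. Of the other called genes, Cdc25b passed in 15 of the 16, Cdc20 in 10, and Plk1 and Kif2c in 9 each. Apart from the leave-outs, Cdc20, Plk1 and Kif2c missed the threshold with a replicate block and with no filter. Plk1 also missed it with counts thinned to the smallest library.

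The neighbouring parts of the mitotic machinery were read from other gene lists, with the share of all genes tested (36.2%) as their background. Among 20 condensin and cohesin genes, 1 was lower and 0 higher (median log2 fold change -0.11). The lower one was Smc3, a core of the cohesin ring, at 117 ± 39.0 in 2H-11 against 164 ± 9.55 CPM in SVEC4-10 (log2 fold change of -0.60 with SE 0.21, adjusted p = 0.0337). Stag2, a cohesin subunit with the next smallest p, averaged 19.95 ± 10.2 in 2H-11 against 30.8 ± 1.71 CPM in SVEC4-10 (adjusted p = 0.0655). In both, 2H-11 replicate 3 was the lowest library.

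Among 32 other kinetochore subunits, 2 were higher and 1 was lower, with a median of 0.016. Cenps, which encodes a centromere protein that also acts in DNA repair, had 61.8, 60.9 and 74.5 CPM in 2H-11, against 23.6, 24.8 and 23.8 CPM in SVEC4-10. The lines did not overlap, and the difference was larger than that of any member at 65.7 ± 7.61 in 2H-11 against 24.1 ± 0.654 CPM in SVEC4-10 (log2 fold change of 1.36 with SE 0.20, adjusted p = 2.74e-05). Pmf1, a subunit of the MIS12 complex, averaged 98.7 ± 10.96 in 2H-11 against 66.3 ± 4.98 CPM in SVEC4-10 (adjusted p = 0.04). The lower gene was Cenpw, a centromere protein. Among 22 other spindle proteins, 0 were higher and 2 lower, with a median of -0.21. These were Bora, which helps Aurora A activate Plk1, at 60.5 ± 6.14 in 2H-11 against 107 ± 13.8 CPM in SVEC4-10 (log2 fold change of -0.91 with SE 0.18, adjusted p = 0.000653), and Kif20b, a kinesin of cytokinesis, at 62.3 ± 31.1 in 2H-11 against 99.9 ± 6.61 CPM in SVEC4-10 (adjusted p = 0.0352). For Kif20b, 2H-11 replicate 3 was far below the rest.

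Among 17 genes of the anaphase-promoting complex, 1 was higher and 3 were lower, with a median of -0.067. Anapc11, the RING subunit that recruits the ubiquitin-conjugating enzyme, was higher at 402 ± 17.8 in 2H-11 against 255 ± 20.6 CPM in SVEC4-10 (log2 fold change of 0.57 with SE 0.15, adjusted p = 0.00681). Cdc27, a scaffold subunit, was lower at 15.5 ± 3.68 in 2H-11 against 25.1 ± 1.67 CPM in SVEC4-10 (adjusted p = 0.012). The other lower genes were Anapc10, a subunit that helps substrates bind, and Fbxo5, which encodes the inhibitor EMI1. Of 11 tested entry inhibitors and phosphatase genes (12 listed), 1 was higher and 0 lower, with a median of 0.197. It was Ppp2r2d, a PP2A subunit that opposes CDK1, at 16.0 ± 1.58 in 2H-11 against 7.37 ± 2.66 CPM in SVEC4-10 (adjusted p = 0.0153), and the next by p, the PP2A scaffold Ppp2r1a, averaged 391 ± 56.3 in 2H-11 against 285 ± 30.1 CPM in SVEC4-10 (adjusted p = 0.0873).

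Among 19 cell cycle transcription regulators, 0 were higher and 2 lower, with a median of -0.16. Tfdp2, a dimer partner of E2F factors, was lower at 6.90 ± 1.35 in 2H-11 against 20.9 ± 2.13 CPM in SVEC4-10 (log2 fold change of -1.68 with SE 0.26, adjusted p = 3.85e-05), and Lin52, a subunit of the DREAM and MuvB complexes, was lower at 7.09 ± 1.09 in 2H-11 against 13.1 ± 0.535 CPM in SVEC4-10 (adjusted p = 0.0065). Among 25 DNA replication genes, 2 were higher and 5 lower, with a median of -0.045. Prim1, the primase subunit, was lower at 138 ± 37.7 in 2H-11 against 238 ± 29.4 CPM in SVEC4-10 (log2 fold change of -0.90 with SE 0.20, adjusted p = 0.00167). Here too, 2H-11 replicate 3 was the lowest library. Ccne1 (cyclin E1) and Cdc45 were the higher genes, and Cdt1, Mcm7 and Rrm1 were also lower. The calls in this replication list are 28.0% of its genes, against 15.2% of the 46 mitotic genes, and the difference between these shares was not tested.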

How the data were processed

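Total RNA of 3 libraries of 2H-11 and 3 of SVEC4-10 was sequenced with the Oxford Nanopore direct RNA kit, starting from 1 ug per library, per the labels' protocols. The submitters' processing notes name the builds mm10 and GRCm38. Which aligner and counting tool were run, and whether strand was used, is not given in the sources used here. Raw read counts per gene were deposited by the authors, along with CPM values that are the same counts divided by the library total and multiplied by 1000000. Of the table's lines, 13 were broken, without a gene, and were dropped. The authors' own test columns were not used.

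Counts were tested with edgeR 4.0.16 in R 4.3.3 (filterByExpr with a minimum count of 10 and a minimum total of 15, TMM, quasi-likelihood test, line as the only term, all 6 libraries), with Benjamini-Hochberg adjustment over the 13187 genes tested and a threshold of 0.05. The biological coefficient of variation was 20.2%. The procedure was tested on simulated data. Gene coordinates and the length of 1 main transcript per gene came from GENCODE M21, promoter windows from RefSeq (GRCm38.p6), and similar transcripts from blastn 2.17.0. No pair of libraries agreed within counting noise. Intervals on folds are 95% and come from the fit.

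The members and all gene lists were chosen with earlier results of these data known. All members are given with the mean and SD in each line. Values in every library are given, per role, for the 3 members with the smallest p and the 1 with the largest (all in groups of 4 or fewer), and for other lists the 2 genes with the smallest p are given with values, except that 1 result of the DNA replication list is not reported here. Other called genes of those lists are named only, after their values were seen. Cenps was given in every library after its values were seen, as were the few values quoted for Cenpe.

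Alternatives were a replicate block, DESeq2 1.42.0, limma-voom (limma 3.58.1), DESeq2 size factors, library size alone, no filter, 20 counts in 3 libraries, Ensembl genes only, thinning, a test against a 2-fold change and leaving out each library. Removal of a trend with transcript length, in Ensembl genes only, was added after seeing the data. Figures were drawn with matplotlib 3.10.9 in Python 3.11.15, and tables were made with numpy 2.4.6 and pandas 2.3.3.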

Additional observations from a re-analysis of the deposited data

How the results depend on the processing

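Of 736 alternative values for single members (46 genes under 16 alternatives), 693 kept their side of the threshold, of which 626 kept their sign and 67, in uncalled genes, had the other sign; 22 passed the threshold newly, 21 lost it and 0 called values changed sign. The main analysis gave 5 members higher in 2H-11 and 2 lower, and 2645 genes higher and 2133 lower in all. Members higher in 2H-11 numbered 8 with library size alone, 2 with no filter (and 4 lower), 9 with Ensembl genes only, 11 with Ensembl genes only and the length trend removed together, chosen after seeing the data, and 0 against a 2-fold change (0 lower). Over all genes, 2947 were higher and 1747 lower with library size alone, and 3854 and 3117 with no filter. Against a 2-fold change 1134 were higher and 671 lower. The 2 fits on Ensembl genes leave out all other loci. Fitted alone, 1657 Ensembl genes were higher and 1631 lower, where the main fit had 1319 of them higher and 1907 lower. With the length trend also removed, 1724 were higher and 1677 lower. Leaving out 1 library gave 1 to 8 members higher and 2 to 4 lower, where a line left with 2 libraries shares its spread with the other. The median log2 fold change of the members was -0.0629 to 0.1126 over the alternatives. Library size alone moved the median of all genes to 0.099. The cause of these changes was not tested, except that the test against 2-fold is stricter by construction.

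No sign was found that the replicate numbers pair the libraries. Same-numbered libraries deviated together with correlations of -0.02, 0.054 and -0.006 over 13187 genes, and differently numbered ones with -0.084 to 0.076. With 3 libraries a line, such correlations cannot show that the numbers carry no pairing. With the number as a replicate block, 2 members were higher and 2 lower, against 5 and 2 without it, and 2491 genes were higher and 1970 lower in all.

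With 3 libraries a line, the intervals of 15 of the 39 uncalled members lay inside 1.5-fold, and those of the others reached 1.5-fold or beyond.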
